A study of Mus musculus with 4 samples.

Results

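The genes of cytokines that sustain or activate natural killer (NK) and T cells were examined in tumour-infiltrating cells, 8 in all: Il15, Il15ra, Il12b, Il12a, Il18, Il18bp, Il27 and Ebi3. The set was listed by symbol, and all 8 members were among the 12584 genes of the count table. Their source cells were read from the deposited cell classes and libraries, and their levels were set beside the number of NK cells.

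CD45+ cells were sorted from YUMM1.7-OVA RTT melanomas, an ovalbumin-bearing mouse line resistant to targeted therapy, and were profiled by single-cell RNA sequencing of fixed cells. In all groups the hosts were Rag2-/- mice, unable to make T or B cells, and on day 7 all were given OT-1 CD8+ T cells that recognise ovalbumin, 72 h before collection on day 10. CTRL tumours carried an mCherry vector without insert, and IRF3/7 tumours carried vectors that force Irf3 and Irf7 in the cancer cells from an SFFV promoter, as a bulk sorted population. The mCherry line was also grown in mice treated with the COX2 inhibitor celecoxib (COX2i) or with celecoxib and the DNA methyltransferase inhibitor 5-azacytidine (COX2i + 5-AZA). Each group was 1 library of 3 pooled tumours, so no test between groups was possible, and animal-to-animal spread could not be seen. The intervals given here are 95% intervals of counting error only.

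IL-15 is a survival factor for NK cells and memory CD8+ T cells, and is presented to them on the surface of myeloid cells by its own receptor chain, IL-15Rα (Il15ra). IL-12 is a pair of Il12a with Il12b, the latter also part of IL-23, and it drives interferon-γ in NK and T cells together with IL-18, which is stored as a precursor and held in check outside the cell by the soluble binding protein IL-18BP. IL-27 pairs the products of Il27 and Ebi3, and Ebi3 also pairs with other partners.

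The CTRL, IRF3/7, COX2i and COX2i + 5-AZA libraries held 8953, 6329, 9133 and 10032 cells, with a median of 6151, 3168, 7502 and 6039.5 unique molecular identifiers (UMIs) per cell. NK cells numbered 11, 568, 50 and 437 in that order, of which 0, 64, 4 and 32 held a UMI of a T cell marker. CD8+ T cells numbered 0, 8, 1 and 7, too few for any value. No full barcode occurred in more than 1 library, but 10018 of 34447 cells shared the droplet part of their barcode with a cell of another library. All 5 NK markers and all 5 markers of CCR7+ dendritic cells (DC; the class named DC3) were highest in their own class. Of 4 monocyte markers in the table, Ccr2 and Vcan were highest elsewhere, as were Sirpa and Clec10a of the 5 cDC2 markers. The class Myofibrobl, read here as non-immune cells left after the sort, was highest for 3 of its 4 markers in the table. Its marker Mitf was highest elsewhere, as was Batf3 of the 5 cDC1 markers.

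On GRCm38 the 8 protein-coding genes are spread over 7 chromosomes. Il15 lies at chr8:82331632-82403222 (minus strand) and Il15ra at chr2:11705290-11734317 (plus strand). Il12b is at chr11:44400063-44414033 (plus strand) and Il12a at chr3:68690644-68698547 (plus strand). Il18 is at chr9:50554827-50581840 (plus strand), where it overlaps Bco2 and Tex12 on the opposite strand, and Il18bp at chr7:102014885-102018690 (minus strand), where it overlaps Numa1. Il27 is at chr7:126589010-126594941 (minus strand), overlapping Apobr, and Ebi3 at chr17:55952640-55957022 (plus strand), overlapping Gm16712. Probes measure a fixed stretch of each transcript, so isoforms cannot be told apart.

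The promoters of Il15ra and Il12b are shown because both genes were higher in the IRF3/7 library but came from different cells, as described further on. RefSeq entries (GRCm38.p6) were found for 6 of the 8 members, and not for Il15 and Il27. The windows are the 250 bases before the first of 2 listed starts of Il15ra, chr2:11705043-11705292, and of Il12b, chr11:44399813-44400062, both on the plus strand. Capitals mark a match to GAAANNGAA, the core of the element bound by interferon regulatory factors, searched on both strands.
Il15ra: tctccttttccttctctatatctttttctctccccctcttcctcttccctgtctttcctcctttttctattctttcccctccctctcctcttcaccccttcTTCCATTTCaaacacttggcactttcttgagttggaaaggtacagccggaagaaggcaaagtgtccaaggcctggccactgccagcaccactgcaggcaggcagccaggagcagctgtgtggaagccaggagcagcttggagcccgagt
Il12b: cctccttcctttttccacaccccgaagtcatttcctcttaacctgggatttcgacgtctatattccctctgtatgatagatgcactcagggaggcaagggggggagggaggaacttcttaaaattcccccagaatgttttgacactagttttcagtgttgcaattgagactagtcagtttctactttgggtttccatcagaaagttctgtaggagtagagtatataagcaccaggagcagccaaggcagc
The match in Il15ra lies on the opposite strand and begins 149 bases before the start. The window of the other Il15ra start, chr2:11705462-11705711, held no match. Among the 6 members with an entry, Il15ra was the only member with this match in a window, and 7.13% of all 32851 promoters of the same length held it. This is a match of letters, and no binding was measured. A second pattern of letters, TTCNNNGAA, was searched in the same way. It was found in 0 members and in 7.02% of all promoters.

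In the IRF3/7 library, 7 of 8 members had at least 2-fold more UMIs per 1000000 UMIs (CPM) than in CTRL, all but Ebi3. Of all genes with at least 20 UMIs in the pair of libraries, 10.8% reached that fold in the same direction. Within monocytes and macrophages combined it was 8 of 8 members, against 9.16% of genes. Of these, Il12b had 18 UMIs in IRF3/7 and 2 in CTRL, so it met the limit of 20 UMIs only through IRF3/7. Il12a had 15 and 7. With IRF3/7 given the class mix of CTRL the count was 4 of 7, against 9.07% of genes. Classes under 20 cells were left out of that mix, among them the macrophages TAM_C1q and TAM_Spp1, with 7 and 10 cells in IRF3/7. The value rests mostly on the 20 TAM_cycling cells of IRF3/7. In COX2i + 5-AZA the count was 5 of 8 over all cells (Il15ra, Il12b, Il12a, Il18bp and Il27), with 6.49% of all genes, and the same 5 within monocytes and macrophages, with 5.65%, and 3 of 6 there, with 4.89%, after thinning to 1500 UMIs per cell. Il12b had 55 UMIs in these cells against 2 in CTRL, and met the limit only through 1 Infl_Mono cell that held 43 of the 55. At 1.5-fold over all cells the count was 8 of 8, with 10.1%. In COX2i it was 3 of 8 (Il12b, Il12a and Il27), with 2.45% of all genes, and within monocytes and macrophages 2 of 7 (Il12a and Il27), with 1.93%. That count was 1 after thinning (2.32%), with the class mix of CTRL (1.42%) and in cells with more than 2000 genes (1.79%). These comparisons share the CTRL library and are not independent of each other.

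COX2i + 5-AZA was also set against COX2i, which differs from it by 5-azacytidine. Over all cells 4 members were at least 2-fold higher (Il15ra, Il18, Il18bp and Il27; 6.85% of all genes) and Il12a was at least 2-fold lower (11.9%). Within monocytes and macrophages Il15ra, Il12b, Il18bp and Il27 were higher (6.16%) and Il12a was lower (9.77%). For Il12b this was 55 UMIs against 15, with 43 of the 55 in 1 cell, and the ratio changed sign with the class mix of COX2i. For Il15, Il15ra, Il12b, Il18bp and Il27 the order of levels over all cells was IRF3/7, COX2i + 5-AZA, COX2i and CTRL, with no overlap between the intervals of neighbours. For Il18 and Ebi3 the last 2 changed places, and Il12a alone was highest in COX2i.

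**Figure D1:**
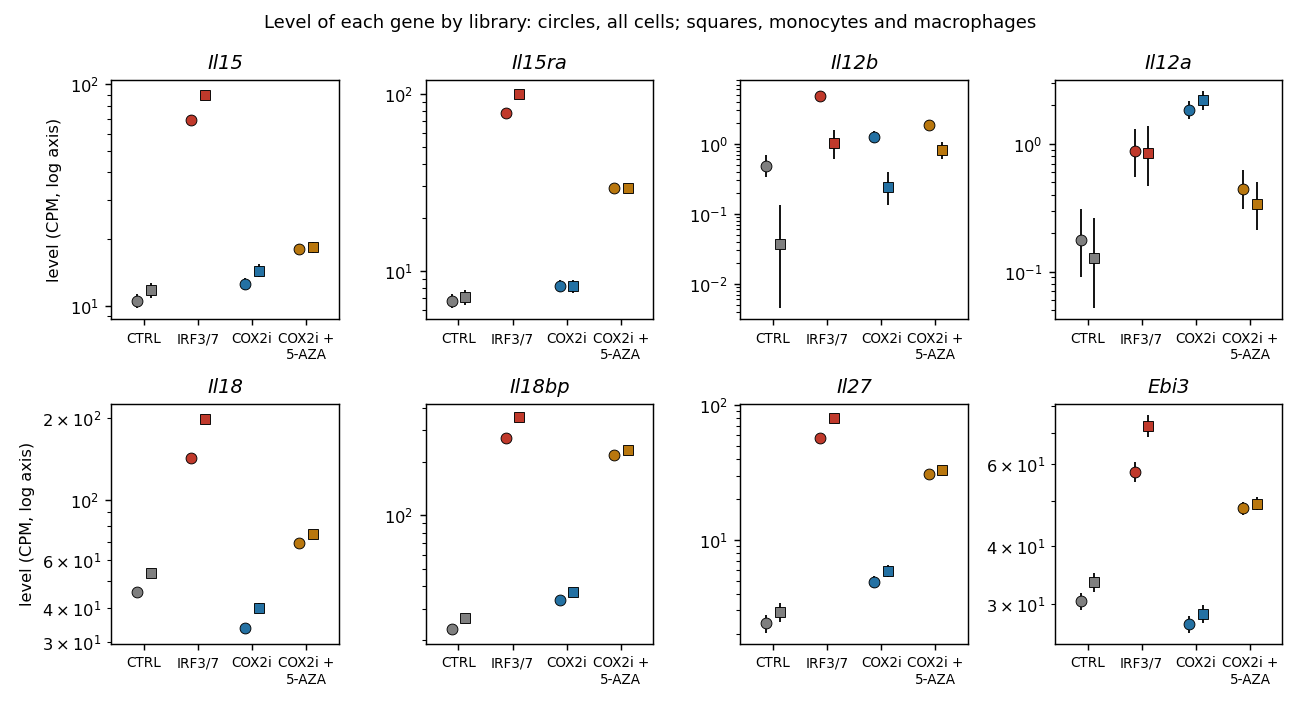
Level of each of the 8 genes in each library in CPM (log axis); circles are all cells, squares monocytes and macrophages, and bars 95% intervals of counting error. The IRF3/7 points are the highest in 7 panels, and in the Il12a panel the COX2i points are.

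Il15 and its presenting chain were both highest in the IRF3/7 library, and Il15ra differed from CTRL by the larger factor. Il15 was at 10.5 CPM (9.72 to 11.3) in CTRL, 69.4 (66.2 to 72.6) in IRF3/7, 12.5 (11.7 to 13.3) in COX2i and 18.0 (17.1 to 19.0) in COX2i + 5-AZA. IRF3/7 stood far above the other libraries, at 6.62 times CTRL (6.07 to 7.23). Il15ra was at 6.73 CPM (6.13 to 7.38), 78.4 (75.1 to 81.9), 8.19 (7.57 to 8.85) and 29.4 (28.2 to 30.6) in the same order, which is 11.7 times CTRL (10.5 to 12.9) in IRF3/7 and 4.37 times (3.95 to 4.84) in COX2i + 5-AZA. The libraries fell into a high, a middle and a low pair for Il15ra, whereas for Il15 the COX2i + 5-AZA library lay near the low pair. These sums mix cell numbers with levels per cell: fewer cells of a type and less RNA per cell cannot be told apart in them.

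Monocytes and macrophages held 87.2% to 91.6% of Il15 UMIs and 79.4% to 90.0% of Il15ra UMIs in every library, with 67.8% to 89.7% of all UMIs. The leading class moved with the make-up of the library. In CTRL, TAM_C1q macrophages gave 43.6% of Il15 UMIs, in IRF3/7 Infl_Mono, the inflammatory monocytes, gave 80.9%, and in COX2i + 5-AZA Monocyte_1 gave 26.7%. Infl_Mono made up 68.5% of cells in IRF3/7 and 1.04% in CTRL.

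Within Infl_Mono, Il15 was at 62.0, 100.4, 86.8 and 67.5 CPM in CTRL, IRF3/7, COX2i and COX2i + 5-AZA, a far smaller difference than in whole libraries. Neutrophils held Il15 at 45.3 CPM in CTRL, 164 in IRF3/7 and 74.9 in COX2i + 5-AZA. The non-immune Myofibrobl cells were low in CTRL, at 3.53 CPM, and at 27.7 in IRF3/7, 7.84 times as much (5.33 to 11.8). For Il15ra the highest levels were in CCR7+ DC, at 182, 212, 217 and 149 CPM, with only 8 UMIs in CTRL, and these DC differed little between libraries. In Infl_Mono Il15ra was at 39.2, 110, 60.6 and 85.0 CPM, and in the proliferating macrophages TAM_cycling at 5.33, 39.3, 6.37 and 16.4, where IRF3/7 had 20 cells.

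After every cell was thinned to 1500 UMIs, 12.5% of Infl_Mono cells of IRF3/7 (11.5 to 13.5) held an Il15 UMI, and 13.3% (12.3 to 14.4) an Il15ra UMI, leaving out 286 shallower cells. In NK cells of the same library the shares were 1.96% (0.944 to 3.58) and 3.92% (2.41 to 5.99), leaving out 58. Without thinning they were 22.7% and 24.8% in Infl_Mono, with a median of 3076 UMIs per cell, and 4.93% and 10.4% in NK cells, with 2674.5. In the thinned Infl_Mono cells of IRF3/7, Il15ra was found in 97 of 505 cells with Il15 (19.2%, 15.9 to 22.9) and in 442 of 3544 without (12.5%, 11.4 to 13.6). In Monocyte_1 of COX2i + 5-AZA it was 7 of 81 (8.64%, 3.55 to 17.0) and 247 of 3477 (7.1%, 6.27 to 8.01), and in its Infl_Mono 6 of 79 (7.59%, 2.84 to 15.8) and 76 of 673 (11.3%, 9.0 to 13.9), with overlapping intervals in both.

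**Figure D2:**
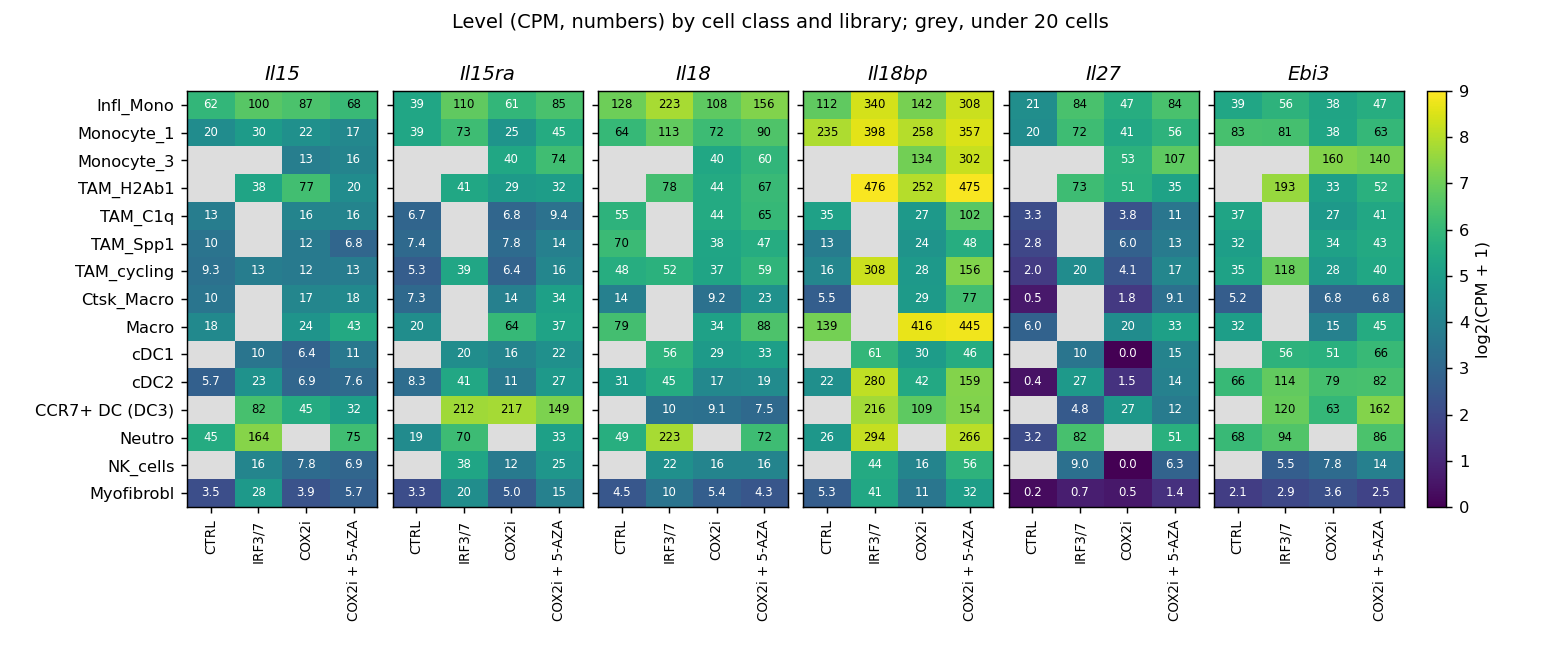
Heat map of log2(CPM + 1) with the CPM printed in each cell, for 6 genes (panels) over 15 classes (rows) and 4 libraries (columns); grey marks classes under 20 cells. Il15, Il18 and Il27 are high in Infl_Mono in every library, Il15ra in CCR7+ DC, and Il18bp in Monocyte_1, TAM_H2Ab1 and Macro.

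The genes of IL-12 were rare, and Il12b and Il12a came from different cells. Il12b had 33 UMIs in 5 cells in CTRL, 127 in 22 cells in IRF3/7, 99 in 15 cells in COX2i and 141 in 29 cells in COX2i + 5-AZA. In CPM this was 0.486 (0.335 to 0.683), 4.82 (4.02 to 5.73), 1.26 (1.02 to 1.53) and 1.85 (1.56 to 2.18). The ratios to CTRL were 9.91 (6.71 to 15.0), 2.59 (1.73 to 3.96) and 3.80 (2.59 to 5.74). They rest on few cells: 25 of the 33 CTRL UMIs were in a single cell, and without the cell richest in Il12b in each library the log2 ratios, 3.31, 1.37 and 1.93 as measured, became 4.96, 2.98 and 3.45. The intervals treat UMIs as independent and are too narrow here.

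CCR7+ DC, migratory DC that carry antigen to lymph nodes, gave 90.9%, 81.9%, 82.8% and 60.3% of Il12b UMIs in CTRL, IRF3/7, COX2i and COX2i + 5-AZA while holding between 0.0648% and 0.789% of all UMIs. There were 10, 66, 28 and 87 of these cells. Il12b was detected in 2 of 10 (20.0%, 2.52 to 55.6), 13 of 66 (19.7%, 10.9 to 31.3), 9 of 28 (32.1%, 15.9 to 52.4) and 20 of 87 (23.0%, 14.6 to 33.2), shares that overlap. The CPM within the class was 682 (460 to 974), 500.1 (409 to 606), 742 (590 to 921) and 211 (169 to 261). The CTRL value rests on 2 positive cells, 1 of which held 25 of the 30 UMIs. Without the richest of these DC in each library the values were 127 (41.2 to 296), 364 (286 to 457), 527 (398 to 684) and 145 (110.3 to 188), so the order of IRF3/7 and of COX2i + 5-AZA against CTRL turned with that cell, while COX2i + 5-AZA was below COX2i either way. At the midpoint of both libraries' levels, the class make-up of the library accounted for 114% of the difference in Il12b between IRF3/7 and CTRL and for 191% of that between COX2i + 5-AZA and CTRL. Without the richest of these DC in each library the shares were 67.7% and 84.7%, and the part within classes changed from negative to positive.

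Outside CCR7+ DC, 1 Infl_Mono cell of COX2i + 5-AZA held 43 of that library's 141 Il12b UMIs. This cell was singled out after its values were seen. It had 16211 UMIs in all, no Ccr7, Cacnb3 or Ccl22 and 1 UMI each of Fscn1 and Relb, all markers of CCR7+ DC. In CTRL only 2 UMIs lay in monocytes and macrophages, and the ratio of IRF3/7 to CTRL there, 27.6, had an interval of 6.60 to 245. The ratio of COX2i + 5-AZA to COX2i in these cells had a log2 of 1.74, and of 1.45 without the richest such cell in each library.

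Il12a was highest in COX2i and followed no other member. It had 12, 23, 145 and 34 UMIs in CTRL, IRF3/7, COX2i and COX2i + 5-AZA, or 0.177 (0.0913 to 0.309), 0.873 (0.553 to 1.31), 1.84 (1.55 to 2.17) and 0.446 (0.309 to 0.623) CPM. COX2i was 10.4 times CTRL (5.79 to 20.6), and COX2i + 5-AZA was 0.242 times COX2i (0.161 to 0.354). The intervals of IRF3/7 and COX2i + 5-AZA overlapped, as did those of COX2i + 5-AZA and CTRL. In the macrophages TAM_C1q and TAM_cycling, which held 138 of the 145 UMIs in COX2i, Il12a was found in 6 of 4656 cells in CTRL (0.129%, 0.0473 to 0.280), 94 of 5187 in COX2i (1.81%, 1.47 to 2.21) and 5 of 2699 in COX2i + 5-AZA (0.185%, 0.0602 to 0.432). IRF3/7 had 27 such cells and no Il12a in them. The UMIs were spread over many cells, the richest TAM_cycling cell holding 6, and the cells with Il12a had a median of 11571 UMIs against 9188 for all of these cells in COX2i. No CCR7+ DC held Il12a in any library, and 0 cells held both Il12a and Il12b.

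**Figure D3:**
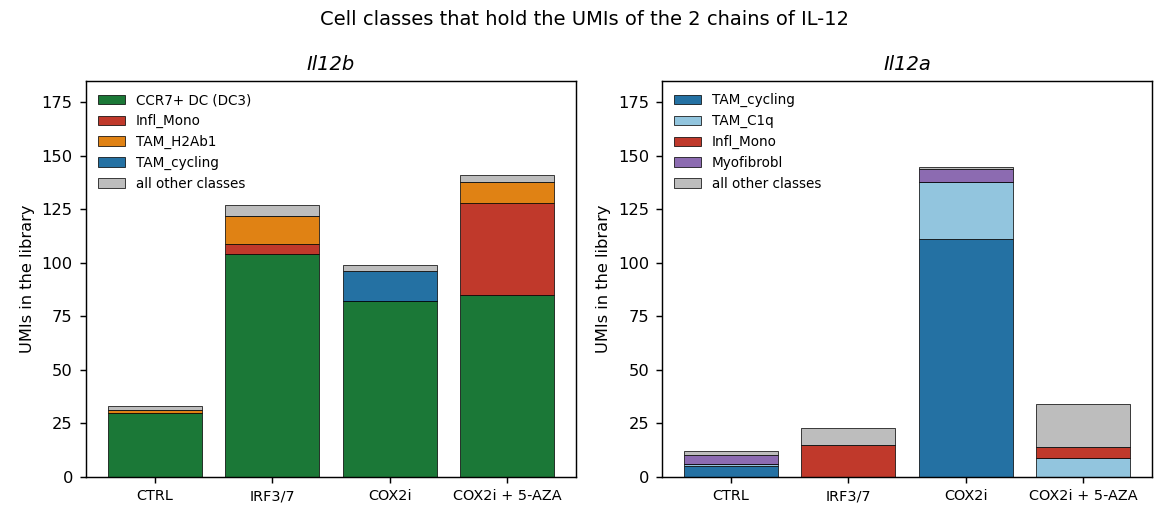
UMIs of Il12b (left) and Il12a (right) in each library, stacked by cell class. Il12b bars are mostly CCR7+ DC, with a large Infl_Mono part in COX2i + 5-AZA, and the tallest Il12a bar, 145 UMIs in COX2i, is mostly TAM_cycling.

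Il18 and its soluble inhibitor Il18bp parted: Il18 differed by up to 3.12 times from CTRL and Il18bp by up to 11.7 times. Il18 was at 45.6 CPM (44.0 to 47.2) in CTRL, 142 (138 to 147) in IRF3/7, 33.6 (32.3 to 34.9) in COX2i and 69.3 (67.4 to 71.2) in COX2i + 5-AZA. COX2i was the only library below CTRL, at 0.737 times (0.700 to 0.777). Il18bp was at 23.1 CPM (22.0 to 24.3), 269 (263 to 276), 33.4 (32.1 to 34.7) and 218 (215 to 221), and here the IRF3/7 and COX2i + 5-AZA libraries stood together, 11.7 (11.0 to 12.3) and 9.44 (8.96 to 9.94) times CTRL.

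The number of Il18bp UMIs for each Il18 UMI was 0.51 (0.48 to 0.54) in CTRL, 1.89 (1.82 to 1.97) in IRF3/7, 0.99 (0.94 to 1.05) in COX2i and 3.15 (3.05 to 3.25) in COX2i + 5-AZA. Probes differ between genes, so this ratio is comparable between libraries but is no ratio of molecules. It was highest in COX2i + 5-AZA, not in IRF3/7. Within Infl_Mono it was 0.87 (0.59 to 1.28), 1.52 (1.46 to 1.59), 1.32 (0.95 to 1.84) and 1.97 (1.79 to 2.18). The order was the same in cDC2 (0.71, 6.22, 2.41 and 8.32) and Myofibrobl (1.19, 4.07, 1.97 and 7.5). It was not in Monocyte_1, at 3.69 (1.97 to 7.43), 3.52 (2.74 to 4.58), 3.58 (2.92 to 4.42) and 3.97 (3.78 to 4.18), nor in TAM_H2Ab1, at 10.4 (4.18 to 33.4), 6.13, 5.75 and 7.07, nor in TAM_cycling, at 0.34, 5.88 (47 UMIs of Il18bp and 8 of Il18), 0.76 and 2.65.

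Monocytes and macrophages gave 94.6% to 97.3% of Il18 UMIs and 88.5% to 95.9% of Il18bp UMIs. Within them the genes had different peaks. Il18 was highest in Infl_Mono, at 128, 223, 108 and 156 CPM, while Il18bp was high in Monocyte_1 (235, 398, 258 and 357) and in TAM_H2Ab1, macrophages named for an MHC class II gene, at 435 in CTRL (19 cells), 476 in IRF3/7, 252 in COX2i and 475 in COX2i + 5-AZA. The class Macro was also high, at 139 CPM in CTRL, 416 in COX2i (23 cells) and 445 in COX2i + 5-AZA. In TAM_C1q Il18bp was at 34.7 CPM in CTRL and 102 in COX2i + 5-AZA, and in TAM_cycling at 16.3 and 156, a factor of 9.58 (8.43 to 10.9). It was not limited to monocytes and macrophages. In cDC2, conventional DC that mainly prime CD4+ T cells, Il18bp was at 21.5, 279.9, 41.8 and 159 CPM, 13.0 times CTRL in IRF3/7 (9.87 to 17.4), and neutrophils held 25.9 CPM in CTRL, 294 in IRF3/7 and 266 in COX2i + 5-AZA. Il18 in TAM_Spp1 was 0.548 times CTRL in COX2i (0.474 to 0.633).

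Thinned to 1500 UMIs, 36.1% of Infl_Mono cells of IRF3/7 (34.7 to 37.6) held Il18bp, against 4.90% of NK cells (3.20 to 7.15). Without thinning the shares were 54.3% and 8.98%. In the same Infl_Mono cells Il18bp was found about as often with Il18 as without it, whereas in Monocyte_1 of COX2i + 5-AZA it was found in 195 of 417 cells with Il18 (46.8%, 41.9 to 51.7) and in 38.0% of those without (36.3 to 39.7).

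As measured over all cells, Il27 differed from CTRL by the largest factor of the 8 members in IRF3/7 and in COX2i + 5-AZA, whereas its partner Ebi3 differed by less than 2-fold. Without the cell richest in each gene, Il12b passed Il27 in IRF3/7, and with median-of-ratios scaling Ebi3 passed 2-fold there, at a log2 of 1.21. Il27 was at 2.40 CPM (2.05 to 2.80) in CTRL, 57.3 (54.5 to 60.3) in IRF3/7, 4.88 (4.40 to 5.39) in COX2i and 30.9 (29.6 to 32.1) in COX2i + 5-AZA. The ratios to CTRL were 23.9 (20.3 to 28.2), 2.03 (1.69 to 2.46) and 12.9 (11.0 to 15.2). Ebi3 was at 30.4 (29.1 to 31.7), 57.8 (54.9 to 60.8), 27.1 (26.0 to 28.3) and 48.3 (46.7 to 49.9) CPM, with ratios of 1.90 (1.78 to 2.03), 0.892 (0.840 to 0.949) and 1.59. Both genes stood highest in IRF3/7 and next in COX2i + 5-AZA, but on very different scales of change. The number of Il27 UMIs for each Ebi3 UMI was 0.079 in CTRL, 0.99 in IRF3/7, 0.18 in COX2i and 0.64 in COX2i + 5-AZA.

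The sources of the IL-27 subunits overlapped in part. Monocytes and macrophages gave 95.1% to 97.5% of Il27 UMIs and 83.6% to 91.8% of Ebi3 UMIs. Il27 was at 20.7, 83.6, 47.5 and 83.8 CPM in Infl_Mono and at 19.5, 72.0, 41.3 and 55.9 in Monocyte_1, so that in Infl_Mono COX2i + 5-AZA equalled IRF3/7. In cDC2 it was at 0.359 (1 UMI), 27.5, 1.49 (5 UMIs) and 14.5 CPM. The CTRL values of Infl_Mono and Monocyte_1 rest on 10 and 4 UMIs. In IRF3/7 Ebi3 was highest in TAM_H2Ab1, at 193 CPM (175 to 213) and 25.7% of that library's Ebi3 UMIs, a class that also held Il27 at 73.2. Ebi3 was there at 16.7 CPM in CTRL (2 UMIs), 32.8 in COX2i and 51.6 in COX2i + 5-AZA. Ebi3 was higher in cDC2 (66.1, 114, 79.4 and 81.6) than in Infl_Mono (39.2, 56.1, 37.7 and 47.2), and in CCR7+ DC it was at 120.2 (77.8 to 177) in IRF3/7 and 162 (125 to 206) in COX2i + 5-AZA, with only 3 and 7 UMIs in CTRL and COX2i. Detection of the subunits in the same cell was not more frequent than apart: in thinned Infl_Mono cells of IRF3/7, Ebi3 was found in 30 of 474 cells with Il27 (6.33%, 4.31 to 8.91) and 307 of 3575 without (8.59%, 7.69 to 9.55). In TAM_H2Ab1 of the same library it was 12 of 46 (26.1%, 14.3 to 41.1) and 91 of 333 (27.3%, 22.6 to 32.5).

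How far the differences lay in the make-up of a library and how far within its classes was then compared. With the levels of CTRL held in each class, class make-up accounted for 45.6% of the difference between IRF3/7 and CTRL in Il15, 32.1% in Il15ra, 35.7% in Il18, 33.2% in Il18bp and 19.2% in Il27. These shares lean on Infl_Mono of CTRL, 93 cells with 30 UMIs of Il15, 19 of Il15ra and 10 of Il27. With the levels of IRF3/7 the shares were 58.1%, 66.4%, 50.6%, 45.1% and 89.4%, but these rest on classes that fill CTRL and that held 7 TAM_C1q, 10 TAM_Spp1 and 20 TAM_cycling cells in IRF3/7, and a single Il15 UMI in TAM_C1q. Between COX2i + 5-AZA and CTRL, at the midpoint of both libraries, the share was 67.0% for Il15, 60.3% for Il15ra, 51.6% for Il18bp and 46.6% for Il27. Here Monocyte_1 of CTRL had 44 cells, with 4 UMIs of Il15, 8 of Il15ra and 4 of Il27. Classes were made by the authors from expression. Whether these genes were among those used was not checked, so a level within a class may not be independent of how the class was drawn.

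Only 3 classes had 50 cells in both IRF3/7 and CTRL: Infl_Mono, cDC2 and Myofibrobl. In each of the 3, the intervals of Il15, Il15ra, Il18 and Il18bp lay above CTRL, while Ebi3 did so in 1. In Infl_Mono the log2 ratios were 0.70 for Il15 (0.18 to 1.27), 1.49 for Il15ra, 0.80 for Il18, 1.61 for Il18bp, 2.02 for Il27 and 0.52 for Ebi3 (-0.14 to 1.25). Between COX2i + 5-AZA and CTRL, Il18bp was higher in 8 of 8 classes and Il27 in 7 of 7, Il15ra in 6 of 8, Il15 in 3 of 8 and Ebi3 in 2 of 8, whereas Il18 was higher in 2 and lower in 2 of 8.

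Between COX2i + 5-AZA and COX2i, Il18bp was higher in 8 of 9 classes, Il27 in 6 of 6, Il15ra in 6 of 9, Il18 in 5 of 9 and Ebi3 in 4 of 9. Il15 was higher in 0 of 7 and lower in 1, TAM_Spp1, although it was 1.44 times as high over all cells, and class make-up accounted for 145% of that difference. That share for Il15 was 187% with the levels of COX2i held and 104% with those of COX2i + 5-AZA. For Il15ra it was 52.4% at the midpoint. What set these shares was not tested. In COX2i against CTRL, Il18bp was higher in 5 of 7 classes and lower in 1, Il27 higher in 3 of 4, Il15 in 2 of 7 and Il15ra in 1 of 7, while Il18 was lower in 4 of 7 and Ebi3 in 2 of 7.

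**Figure D4:**
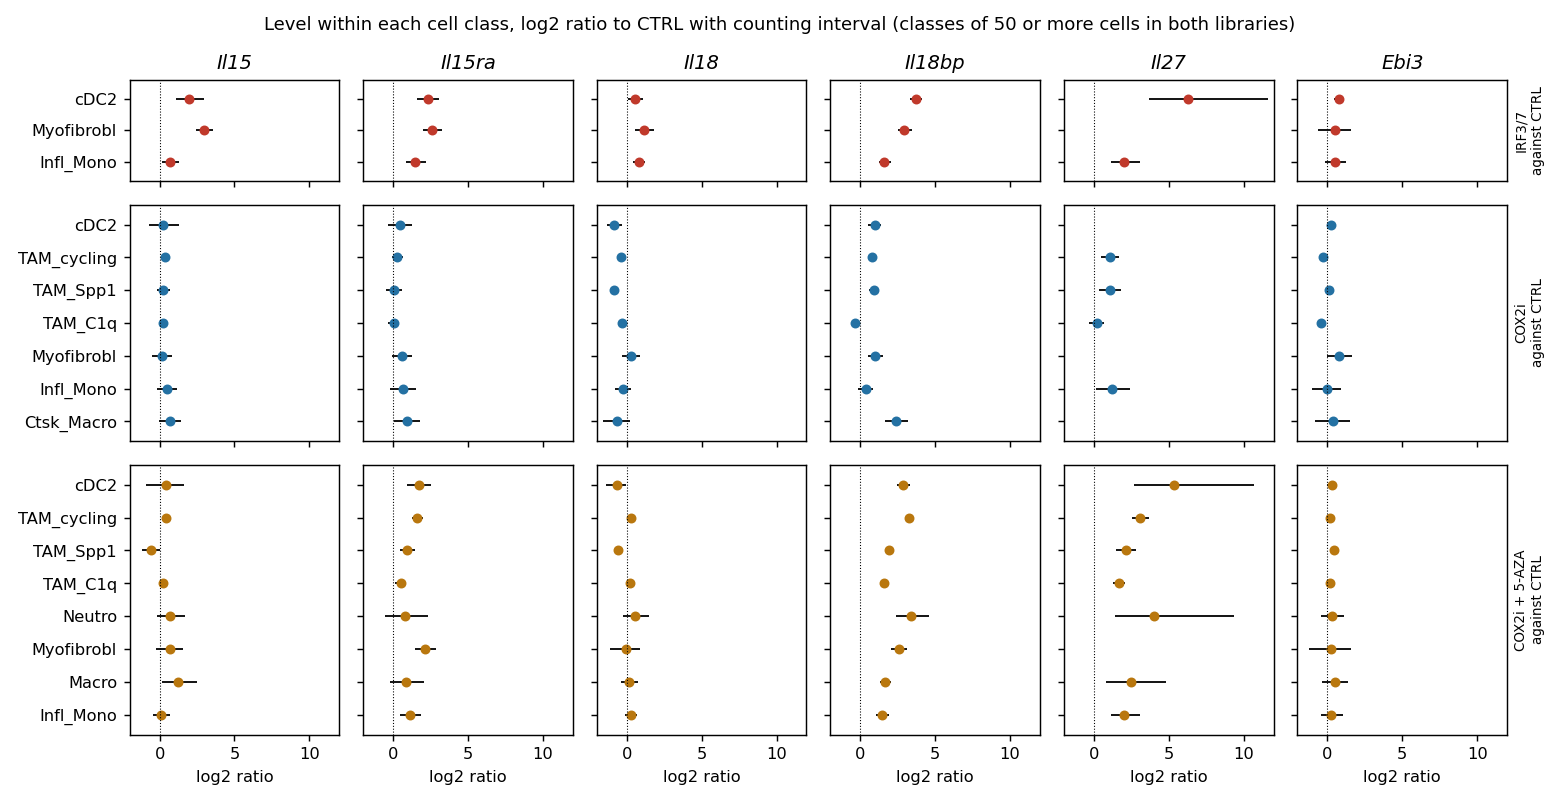
Log2 ratio to CTRL of 6 genes, by class, for 3 comparisons (classes of 50 or more cells in each library of the pair); points are ratios and lines 95% intervals of counting error. In COX2i + 5-AZA all 8 Il18bp points and all 7 Il27 points lie above 0, while Il18 points lie on both sides. The Il27 points of cDC2, Neutro and Macro rest on 1, 1 and 3 UMIs in CTRL.

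NK cells were 0.123% of cells in CTRL (0.0613 to 0.220), 8.97% in IRF3/7 (8.28 to 9.71), 0.547% in COX2i (0.407 to 0.721) and 4.36% in COX2i + 5-AZA (3.96 to 4.77). The order of the libraries by NK share was that of Il15, Il15ra, Il12b, Il18bp and Il27, and was not that of Il18, Ebi3 or Il12a. The factors were far apart. NK share was 73.0 times CTRL in IRF3/7 (40.5 to 147) and 35.5 times in COX2i + 5-AZA (19.6 to 71.6), while over all cells, as measured, the highest ratio of a member to CTRL was 23.9, for Il27 in IRF3/7. From COX2i to COX2i + 5-AZA the NK share was 7.96 times as high (5.93 to 10.9), next to 6.53 times for Il18bp, 6.33 for Il27, 3.59 for Il15ra, 1.44 for Il15 and 0.242 for Il12a. Shares of cells depend on the other cells of the sort, and 4 libraries are too few for a useful correlation, so these values stand side by side only.

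**Figure D5:**
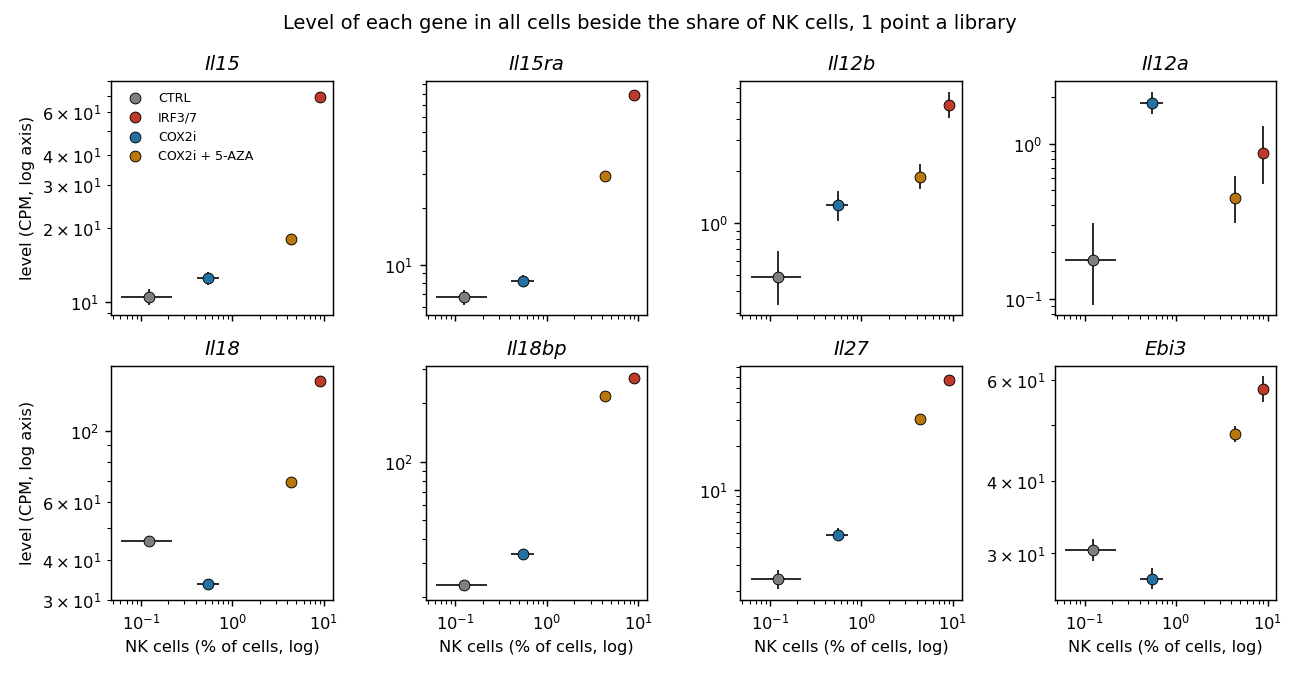
Level of each of the 8 genes over all cells in CPM (vertical, log axis) against the share of NK cells in percent (horizontal, log axis), 1 point a library. In 5 panels the points climb from CTRL to IRF3/7 in the order of NK share; in the Il12a panel the highest point is COX2i, with 0.547% NK cells.

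The receptor chains of these cytokines were for the most part highest in NK cells. NK cells held 96.2% of Il2rb UMIs, the chain that IL-15 and IL-2 share, 76.3% of Il18r1, 54.5% of Il27ra and 46.6% of Il12rb2. Their shares were smaller for Il12rb1 (17.1%, most in Monocyte_1), Il18rap (13.6%, most in Myofibrobl), Il2rg (8.17%, most in TAM_cycling) and Il6st (0.391%). Of all classes, NK cells had the highest CPM of Il2rb, Il2rg, Il12rb1, Il18r1, Il18rap and Il27ra. These ranks pool the 4 libraries. Il12rb2 was at 293 CPM in CCR7+ DC and 265 in NK cells, a pooled difference smaller than that between the NK values of the libraries, and Il6st, the shared signalling chain, was highest in Myofibrobl. Within NK cells Il2rb was at 4252, 3208, 3096 and 3013 CPM in CTRL, IRF3/7, COX2i and COX2i + 5-AZA, the CTRL value coming from 11 cells.

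Among the other receptor chains in NK cells, Il12rb1 was at 247 CPM in CTRL (106 to 486; 8 UMIs), 511 in IRF3/7 (480.2 to 543), 86.2 in COX2i (54.0 to 131) and 256 in COX2i + 5-AZA (233 to 280), and Il12rb2 was at 308 (148 to 567; 10 UMIs), 271, 114 (76.1 to 163) and 278. Both chains of the IL-12 receptor were thus lower in COX2i, the library richest in Il12a, than in IRF3/7 and COX2i + 5-AZA, while the intervals of CTRL overlapped those of COX2i. Il18r1 was at 585, 321, 208 and 196 CPM and Il27ra at 154 (50.03 to 360; 5 UMIs), 48.3 (39.1 to 58.9), 86.2 (54.0 to 131) and 74.4 (62.6 to 87.7). The summed level of 5 NK markers in these cells was 4961, 13598, 2783 and 8339 CPM in the order of the libraries from CTRL on, so the NK class differed in its own markers, and its part in the receptor values was not tested.

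Of the 8 receptor genes, 7 were at least 2-fold higher over all cells in IRF3/7 than in CTRL, 3 in COX2i and 6 in COX2i + 5-AZA, with median log2 ratios of 2.90, 0.34 and 1.65 against -0.29, 0.04 and -0.18 over all genes, of which 10.8%, 2.45% and 6.49% reached that fold. Within monocytes and macrophages, which leave out the NK class, 6 were higher and 1 lower in IRF3/7, 2 were higher in COX2i and 4 in COX2i + 5-AZA. Of all genes in those cells 9.16%, 1.93% and 5.65% were higher, and 32.2% were lower in IRF3/7. The number of NK cells moved with these counts, and its part in them was not tested.

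The same 2-fold limit over all cells was applied to the other lists, with the same shares of all genes. Of 8 genes that mature and release IL-18, Casp1, Casp4 and Gsdmd were higher in IRF3/7, none in COX2i, and Casp1 and Casp4 in COX2i + 5-AZA, with medians of 0.66, 0.09 and 0.59 (log2), and the counts were the same within monocytes and macrophages. Casp1, the protease that cleaves the IL-18 precursor, was at 64.7, 187, 82.5 and 173 CPM, and Casp4, the sensor of bacterial lipopolysaccharide inside the cell, at 23.2, 201, 26.5 and 82.7. Both were thus lowest in CTRL. Of 9 transcription factors listed as regulators, Irf1, Irf8 and Batf3 were higher in IRF3/7 and in COX2i + 5-AZA, and Batf3 alone in COX2i, and within monocytes and macrophages 4 were higher and 1 lower in IRF3/7 (9.16% and 32.2% of all genes), 2 higher in COX2i (1.93%) and 3 in COX2i + 5-AZA (5.65%). Irf1, an activator of many interferon-stimulated genes, was at 113, 1008, 223 and 736 CPM. Of 6 related cytokines in the table, 5 were higher in IRF3/7, 3 in COX2i + 5-AZA and 2 in COX2i, where Il23a, the partner of Il12b in IL-23, was lower, at 0.203 CPM against 0.928 in CTRL (3.16% of all genes were lower). Within monocytes and macrophages 2 of 5 were higher in IRF3/7, 1 of 6 in COX2i and 3 of 6 in COX2i + 5-AZA, against the same 9.16%, 1.93% and 5.65%, and Il23a was lower in each, as were 32.2%, 4.7% and 11.3% of all genes.

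The genes most like each member were searched over 40 units of a class in a library with at least 50 cells, by Pearson's r of log2(CPM + 1). The units share libraries and classes and are not independent, so r is a description. Il15 was most like Rsad2 (0.85), Ddx60 (0.83) and Oasl1 (0.82), Il15ra like Parp9, Helz2 and Nlrc5 (all 0.90), and Il18bp like Calhm6 (0.92), Batf2 and Trafd1 (both 0.91). Il27 was most like Fcgr4 (0.92), Klra2 and C3 (both 0.90), Il18 like Tpd52 (0.90), Tnfrsf21 and Lgals9 (both 0.89), and Ebi3 like Grb2, Cd86 and Prkcd (all 0.91). Between members the highest r was 0.89, for Il18bp and Il27. Il15 with Il15ra reached 0.74, Il27 with Ebi3 0.61 and Il15ra with Il18 0.31.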

How the data were processed

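The authors deposited UMI counts for each gene in each cell, not normalised, which they made with Cell Ranger 7.1.0 from Chromium Flex libraries (probe pairs ligated on fixed RNA) and the mm10 probe set, and filtered for genes and cells. Cell classes are the 17 names of the deposited annotation. Genes overlap others on the opposite strand in 4 cases (Il18, Il18bp, Il27 and Ebi3), and probe positions were not used here.

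UMIs were summed over the cells of a library or class and given per 1000000 UMIs (CPM). Sums carry exact Poisson intervals, shares Clopper-Pearson intervals and ratios exact conditional intervals, all at 95% and for counting error only. A 0 allows up to 3 UMIs, or 0.0381 to 0.114 CPM by library. Library totals were 26356819 to 78722763 UMIs. A gene was counted as higher or lower at 2-fold, among genes with at least 20 UMIs in the 2 libraries together. Class make-up was separated from levels by holding each in turn at the mean of both libraries. No doublet caller was run; an alternative left out the 5% of cells with the most UMIs. The 8 genes, the pathway lists and the settings were chosen with earlier results of these data known. The genes named beyond the 8 are those lists and, for each gene with at least 500 UMIs, the 3 genes of highest correlation. The signalling genes downstream of the receptors are not reported here. Scripts were tested on simulated data (Python 3.11.15, numpy 2.4.6, scipy 1.17.1, pandas 2.3.3).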

Additional observations from a re-analysis of the deposited data

Results flagged for a closer look

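Classes of the same pair of libraries moved in opposite directions for 2 genes, each with an interval of counting error away from 0. Il18 in COX2i + 5-AZA against CTRL had a log2 ratio of -0.68 in cDC2 and -0.57 in TAM_Spp1, but 0.23 in TAM_C1q and 0.30 in TAM_cycling. Il18bp in COX2i against CTRL had -0.34 in TAM_C1q, but 0.79 in TAM_cycling, 0.92 in TAM_Spp1, 0.96 in cDC2, 1.00 in Myofibrobl and 2.39 in Ctsk_Macro. The difference between classes was not tested, since each condition was 1 library.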

How the results depend on the processing

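No paired analysis was possible because each group was 1 library and no test was run. At 1.5-fold, 8 members in place of 5 were higher in COX2i + 5-AZA than in CTRL over all cells, with 10.1% of all genes. Classes under 20 cells were left out of the class mixes given below. For IRF3/7 against CTRL this left out TAM_C1q and TAM_Spp1. Within monocytes and macrophages, the class mix of CTRL left 4 of 7 members higher in IRF3/7 (9.07% of genes) and 1 of 7 in COX2i (1.42%); thinning to 1500 UMIs left 3 of 6 in COX2i + 5-AZA (4.89%) and 1 of 7 in COX2i (2.32%); keeping only cells with more than 2000 genes left 1 of 7 in COX2i (1.79%). With that last limit, which kept 4 NK cells in CTRL and 194 in IRF3/7, the log2 ratio of their NK shares was 7.74 in place of 6.19.

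Within monocytes and macrophages 2 log2 ratios changed sign: Il12a in IRF3/7 against CTRL to -3.34 with the class mix of CTRL, a value set mostly by 20 TAM_cycling cells of IRF3/7 with no Il12a, and Il12b in COX2i + 5-AZA against COX2i to -0.81 with the class mix of COX2i. Leaving out the cell richest in each gene, or cells that share a droplet barcode, was chosen after seeing the data. Of 535 single-gene values under all alternatives, 364 moved by less than the counting interval and 169 by more without such a change of sign; the cause was not tested. With median-of-ratios size factors 34 of 63 of these values moved by more and 0 changed sign. Without the CCR7+ DC richest in Il12b in each library, also chosen after seeing the data, the log2 ratio of Il12b in these DC in COX2i + 5-AZA against CTRL went from -1.69 to 0.19. The UMIs of Il12a and Il12b came from 11 to 101 and from 5 to 29 cells a library.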
